A study of Arabidopsis thaliana with 6 samples.

Results

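Arabinogalactan proteins (AGPs) are cell-surface and cell-wall proteins of plants whose protein chain is rich in hydroxyproline and carries large arabinose and galactose side chains. Fasciclin-like AGPs (FLAs) join such stretches to fasciclin domains, a fold known from adhesion proteins of animals. Expression of the Arabidopsis thaliana genes of both kinds was compared between wild-type whole seedlings that spent 48 h under either traffic noise recorded in a city (a mean of 75 dB) or white noise as the control (a mean of 10 dB), with 3 libraries in each group. All plates stood in a sound-proof facility, sealed and wrapped in foil against light, so both groups were kept dark. The genes were taken by symbol: every deposited row named FLA or AGP with a number, which gave 19 FLA and 30 AGP genes, or 49 of 32921 named rows. FLA4 is listed under its other name, SOS5, and is described with the genes of the same pathway.

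Many AGPs and FLAs are tethered to the outer face of the plasma membrane by a glycosylphosphatidylinositol (GPI) lipid anchor. Their prolines are hydroxylated by prolyl 4-hydroxylases, and galactosyltransferases, glucuronosyltransferases and fucosyltransferases then build the sugar chains. Mutants in single members are known for changes in root growth, cell expansion, stem stiffness, pollen and salt tolerance. Following textbook classes, the AGPs were divided into 13 classical AGPs (a long proline-rich backbone), 12 AG peptides (very short backbones), 3 lysine-rich AGPs and 2 non-classical AGPs. The FLAs fell into group A (6 genes), group B (4), group C (7) and group D (2), which differ in their fasciclin domains and in whether they carry a lipid anchor.

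Coding sequences are shown here for the AGP and the FLA with the highest level and the AGP and the FLA with the smallest p-value. AGP4 was added after its values were seen, because its protein has the highest share of proline, alanine, serine and threonine. Each sequence is read 5′ to 3′ on the coding strand of the TAIR10.1 reference. Capitals mark codons of the residue pairs Ala-Pro, Pro-Ala, Ser-Pro and Thr-Pro, the motif on which arabinogalactan chains are typically built. For AGP21, an AG peptide, the whole coding sequence fits on 1 line (chr1:20648634-20648810, minus strand, 177 bases), while the others are windows of 120 bases on the minus strands of chr1:983249-983368 (FLA9), chr2:18742938-18743057 (FLA8), chr4:18581328-18581447 (AGP3) and chr5:3277966-3278085 (AGP4).
AGP21: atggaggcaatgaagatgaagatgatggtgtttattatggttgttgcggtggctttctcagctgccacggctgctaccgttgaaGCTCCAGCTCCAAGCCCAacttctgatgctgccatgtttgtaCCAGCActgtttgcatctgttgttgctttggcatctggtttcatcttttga
FLA9: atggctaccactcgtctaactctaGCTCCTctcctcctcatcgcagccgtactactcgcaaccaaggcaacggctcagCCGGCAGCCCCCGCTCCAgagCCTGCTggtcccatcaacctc
FLA8: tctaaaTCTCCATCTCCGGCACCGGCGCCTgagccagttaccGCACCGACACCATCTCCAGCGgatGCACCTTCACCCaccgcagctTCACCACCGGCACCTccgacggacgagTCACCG
AGP3: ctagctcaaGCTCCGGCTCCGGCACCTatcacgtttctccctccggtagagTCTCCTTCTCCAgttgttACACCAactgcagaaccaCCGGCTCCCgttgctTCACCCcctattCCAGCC
AGP4: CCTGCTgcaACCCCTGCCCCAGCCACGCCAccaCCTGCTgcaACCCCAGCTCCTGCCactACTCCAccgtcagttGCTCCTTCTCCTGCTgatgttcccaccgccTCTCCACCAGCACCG
Of the 40 codons in each window, 28 were marked in AGP4, 26 in FLA8, 19 in AGP3 and 10 in FLA9. In AGP21, 8 of the 59 codons (its stop codon included) were marked, in 2 runs. The windows are parts of their genes and do not rank the proteins. Over whole proteins, marked pairs numbered 23.7 per 100 residues in AGP4, 18.7 in AGP3, 8.62 in AGP21, 7.14 in FLA8 and 5.67 in FLA9.

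Over the translated genes, these 4 residues made up a median of 52.2% of an AGP and 33.7% of an FLA, against 24.9% over 27444 protein-coding loci. AGP4, known as JAGGER for its role in the synergid cells of the ovule, reached 72.6%, the highest of all loci. The marked pairs numbered a median of 8.75 per 100 residues in AGPs, 4.45 in FLAs and 1.09 over all loci. AG peptides were short, with a median length of 61.5 residues, against 353 residues for FLAs. The closest relatives by protein identity were AGP16 and AGP20 (86.5%), FLA8 and FLA10 (82.9%), FLA17 and FLA18 (82.4%) and FLA9 and FLA13 (77.6%). FLA8 and FLA10 were the 1 pair of members whose transcripts shared any exact stretch of 50 bases, at 4 start positions.

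Levels are given as CPM, a library's counts relative to its total, scaled with TMM factors, which even out differences in library composition. Named rows held 17540009 to 20780363 counts per library, so that 3 counts correspond to 0.147 to 0.173 CPM. Control replicate 3 stood apart: counts were found in 16128 named rows, where the remaining 5 libraries had counts in 20026 to 20287, and it correlated less with the rest (mean r = 0.742, compared with 0.810 to 0.829). Nothing in the labels says that the 3 samples of a group came from separate cultures, so the p-values measure the spread between these samples.

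Both families held some of the most abundant transcripts of the seedlings, AGPs more so than FLAs. The 30 AGPs together made up 1.96% ± 0.477 of counts in control (SD, n = 3) and 2.08% ± 0.214 after traffic noise, and the 19 FLAs 0.451% ± 0.175 and 0.475% ± 0.0687. Of the 100 named rows with the highest mean CPM, 8 were AGPs and 2 were FLAs. The median AGP stood at 79.6 CPM and the median FLA at 29.0. Per kb of transcript the medians were 92.7 and 18.6 CPM per kb, a wider gap. In summed level, AGPs were 4.36, 3.87 and 5.30 times the FLAs in control libraries 1 to 3 and 4.03, 4.50 and 4.69 times in the traffic noise libraries, so the ratio overlapped between groups.

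A few genes carried each family. FLA9, FLA2, FLA13 and FLA8 held 83.0% to 89.8% of the FLA level in a library, and AGP21, AGP4, AGP9, AGP12, AGP7, AGP24, AGP15 and AGP22 held 90.7% to 93.5% of the AGP level. At the other end, FLA6, FLA20, FLA21 and AGP23 had no count in any library, which at 3 counts allows at most 0.147 to 0.173 CPM per library. A further 5 genes, FLA14, AGP6, AGP11, AGP30 and AGP40, had too few counts to be tested. Several of these rare genes are known from pollen (FLA14, AGP6, AGP11, AGP23 and AGP40). All 7 genes of a pollen marker list were under 1 CPM in every library, and 3 of them were at 0. This left 15 FLA and 25 AGP genes in the fit.

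**Figure D1:**
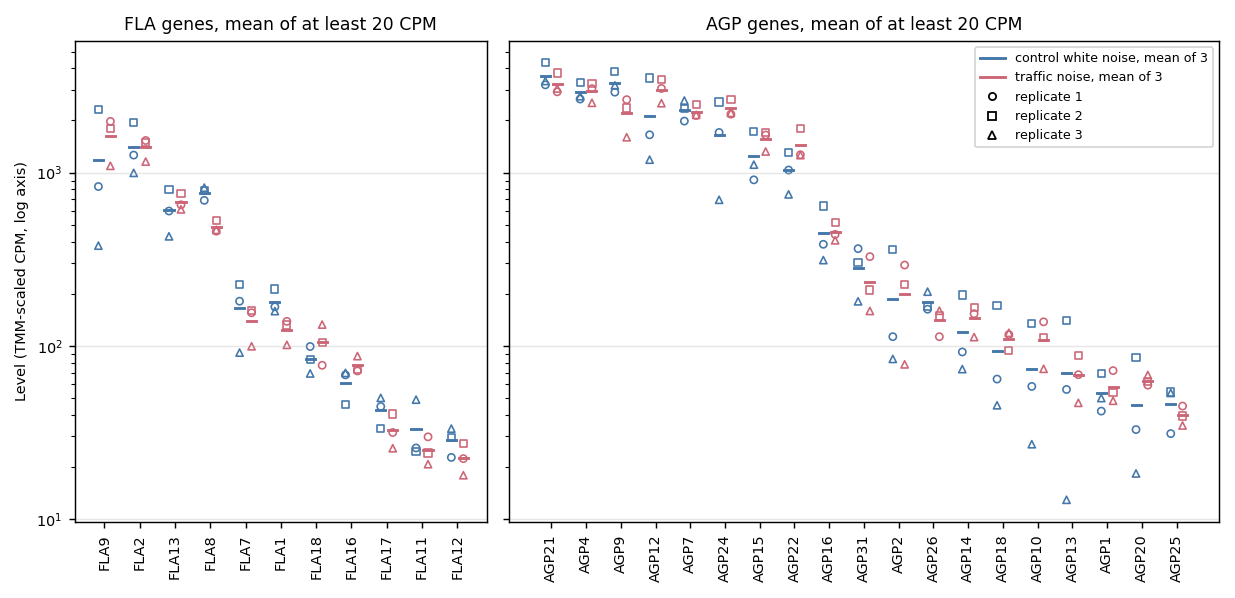
Level of each FLA gene (left) and AGP gene (right) with a mean of at least 20 CPM, on a log axis in TMM-scaled CPM; open symbols are single libraries, shaped by replicate number, and bars are the means of 3 control (blue) and 3 traffic noise (red) libraries. FLA8 and AGP9 are 2 genes whose traffic noise libraries all lie below the control libraries, while FLA9 spreads from 379 to 2322 CPM within the control group.

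No FLA or AGP gene passed the main test, edgeR's quasi-likelihood F test with Benjamini-Hochberg adjustment over 19112 rows at 0.05, and the smallest adjusted p among the 40 tested was 0.493, for FLA8. That test called 0.0105% of all rows, and limma-voom called 0 of the 40 and 0.0733% of all rows. At an unadjusted edgeR p under 0.05 there were 5 members (12.5%), 4 lower and 1 higher after traffic noise, against 7.46% of all rows. Most members are abundant, and among rows with a mean of at least 20 CPM the share was 3 of 30 members (10%) against 16%. With DESeq2, 1 of the 28 members that received an adjusted p was called, FLA8, which was lower, against 3.19% called lower among all 4289 rows with an adjusted p. All 3 traffic noise libraries lay below all 3 control libraries for 5 members (12.5% of those tested, against 7.39% of all rows) and above them for 2 (5%, against 8.99%). At a mean of at least 20 CPM, it was below for 4 of 30 members (13.3%, against 12.6%) and above for 1 (3.33%, against 11.1%).

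The fitted log2 fold change was negative for 11 of 15 FLAs, with a median of −0.34, and for 11 of 25 AGPs, with a median of 0.02. Over all 19112 rows the median was 0.05, with 9072 negative. The FLA median lay 0.36 below the AGP median on the log2 scale (a difference of −0.36). The difference was −0.087 with limma-voom and depended on single libraries: it was 0.07 without control replicate 1, −0.65 without control replicate 2, −0.09 without control replicate 3 and −0.04 without traffic noise replicate 1. The FLA median itself was 0.04 with limma-voom, −0.00 without control replicate 1 and −0.06 without traffic noise replicate 1. Both values without a library were those of FLA3, a gene with a mean of 0.845 CPM. The AGP median was 0.38 without control replicate 2. Among genes with a mean of at least 20 CPM, 7 of 11 FLAs were negative (median −0.27) and 7 of 19 AGPs (median 0.10), against a median of −0.01 over 6106 rows.

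**Figure D2:**
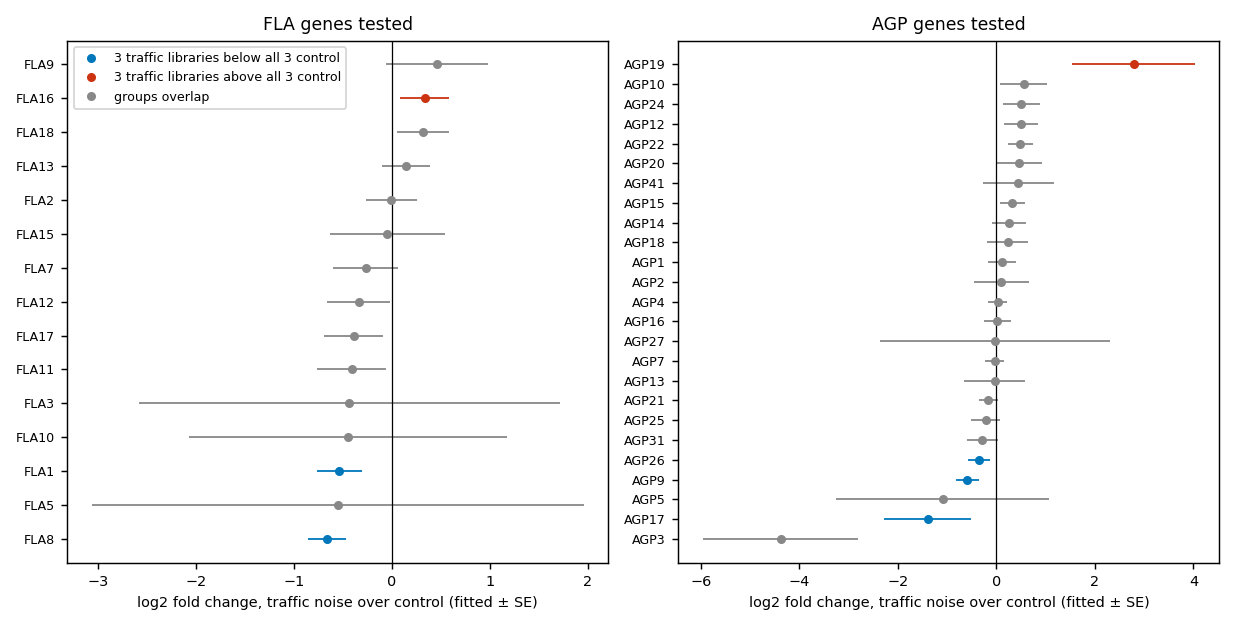
Fitted log2 fold change, traffic noise over control, with its standard error, for the 15 FLA genes (left) and 25 AGP genes (right) tested; the 2 panels have different horizontal scales. Blue points are the 5 genes whose 3 traffic noise libraries all lie below the control libraries, red points the 2 genes with all above, and no point passed edgeR's adjusted threshold.

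Among the FLA groups, group C had the lowest median log2 fold change, −0.49, with 6 of 6 tested members negative in edgeR but 3 of 6 with limma-voom, where FLA2, FLA3 and FLA10 were above 0. The median of group C was −0.037 without control replicate 1 and −0.069 without traffic noise replicate 1. FLA8 stood at 692, 792 and 819 CPM in control and at 459, 528 and 467 CPM after traffic noise. The groups did not overlap, and the spread within each was small: 768 ± 67.2 CPM (SD, n = 3) against 485 ± 37.5. The fitted log2 fold change was −0.66 ± 0.19 (SE), which DESeq2 called (adjusted p of 0.0194) and edgeR did not (0.493). The DESeq2 call was lost without traffic noise replicate 1, 2 or 3 (adjusted p = 0.0573, 0.0887 and 0.282) and kept without any 1 control library (0.0174 to 0.0404).

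FLA1, which is known for a role in shoot regeneration from callus, had 168, 213 and 159 CPM in control and 139, 132 and 101 CPM after traffic noise. All 3 traffic noise values were the lower ones, at a log2 fold change of −0.54 ± 0.23 and an adjusted edgeR p of 0.642. FLA2, the most abundant gene of group C, had 1263, 1942 and 997 CPM in control and 1533, 1500 and 1158 CPM after traffic noise. Its groups overlapped, and their means, 1400 ± 487 and 1397 ± 207 CPM, gave a log2 fold change of −0.00 ± 0.26. The other 3 tested members of group C, FLA3, FLA5 and FLA10, had a mean under 4 CPM in each group, with standard errors of 1.62 to 2.51 on the log2 scale. FLA3 also overlaps a gene with more counts on the opposite strand.

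Group A, in which 3 of 5 tested members were negative, held the most abundant FLA. FLA9 measured 831, 2322 and 379 CPM in control and 1976, 1792 and 1094 CPM after traffic noise. The control libraries alone spanned the whole traffic noise range, and the log2 fold change of 0.46 ± 0.52 (edgeR, adjusted p of 0.955) was 1.42 without control replicate 2 and 0.04 without control replicate 3. FLA13, its close relative, had 600, 802 and 429 CPM in control and 652, 757 and 614 CPM after traffic noise, a log2 fold change of 0.14 ± 0.25. In both genes control replicate 2 was the highest and control replicate 3 the lowest of the 6 libraries. FLA7 had 181, 227 and 91.4 CPM in control and 155, 160 and 99.4 CPM after traffic noise, a log2 fold change of −0.27 ± 0.33, with the same libraries at the ends.

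FLA11 and FLA12, known from secondary walls of stems, were at 24.5 to 48.9 and 22.7 to 33.3 CPM in control and at 20.7 to 29.8 and 17.9 to 27.4 CPM after traffic noise. Their log2 fold changes were −0.41 ± 0.35 and −0.34 ± 0.32, with overlapping groups. The summed level of 11 xylem and secondary wall markers was 86.2 to 113 CPM in control and 42.7 to 76.2 CPM after traffic noise. The list was split: of its 10 tested genes, 5 had a positive and 5 a negative log2 fold change. The positive ones were rare, with means of 0.568 to 5.55 CPM. The lower sum came mainly from CESA4, CESA8, XCP1 and XCP2, with means of 11.1 to 20.5 CPM. CESA8 and XCP2 were lower in all 3 traffic noise libraries, and MYB46, at 0.568 CPM, was higher in all 3. The part of the xylem list in the values of FLA11 and FLA12 was not tested. In RNA from whole seedlings, fewer cells of a type and less RNA per cell cannot be told apart. FLA11 and several of these markers, CESA4 among them, overlap a neighbouring gene with more counts.

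Group B had 2 positive and 2 negative members. FLA16 had 68.0, 45.9 and 69.8 CPM in control and 71.6, 73.0 and 87.2 CPM after traffic noise. The groups were separated by less than 2 CPM, and the log2 fold change was 0.34 ± 0.25 (edgeR, adjusted p of 0.899). A long non-coding RNA, AT2G35859, lies on the opposite strand of FLA16, and its counts matched 41.4% of those of FLA16 within libraries. This share sums the smaller of the 2 counts in each library and divides it by the counts of FLA16. It compares the size of counts and does not show shared reads. FLA18 had 99.1, 83.3 and 69.3 CPM in control and 77.2, 104 and 133 CPM after traffic noise, a log2 fold change of 0.32 ± 0.26 with overlapping groups. FLA17, with 44.7, 33.3 and 50.1 CPM in control and 31.6, 40.4 and 25.6 CPM after traffic noise, lay on the other side at −0.39 ± 0.30, although its protein is 82.4% identical to that of FLA18.

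Among the AGPs, the AG peptides were mostly positive, with 8 of 10 tested members above 0 and a median log2 fold change of 0.38, a sign that no other scaling or tool turned, yet none was separated between groups and none had an unadjusted p under 0.05. The median was 0.11 without control replicate 3, 0.20 without control replicate 1, 0.21 without traffic noise replicate 2 and 0.75 without control replicate 2. AGP21, which acts in root hair patterning, was the most abundant member in CPM and per kb. It had 3212, 4317 and 3380 CPM in control and 2928, 3760 and 3059 CPM after traffic noise, a log2 fold change of −0.16 ± 0.20. AGP12 had 1653, 3519 and 1188 CPM in control and 3062, 3438 and 2517 CPM after traffic noise, a log2 fold change of 0.50 ± 0.35. AGP24 had 1705, 2557 and 697 CPM in control and 2176, 2649 and 2214 CPM after traffic noise, at 0.51 ± 0.37. In both, control replicates 1 and 3 lay below every traffic noise library and control replicate 2 lay among or above them.

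AGP15 showed 909, 1731 and 1112 CPM in control and 1649, 1700 and 1324 CPM after traffic noise, a log2 fold change of 0.32 ± 0.26. AGP22 showed 1035, 1311 and 749 CPM in control and 1268, 1800 and 1262 CPM after traffic noise. Its log2 fold change of 0.48 ± 0.25 had the smallest p among the AG peptides (edgeR, adjusted p of 0.752), and control replicate 2 was again above the lowest traffic noise values. The other AG peptides tested, AGP13, AGP14, AGP16, AGP20 and AGP41, had log2 fold changes of −0.04 to 0.46.

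The abundant AG peptides varied together within the control group. In 9 of 9 with a mean of at least 20 CPM, control replicate 2 was the highest control library, against 34.0% of all 6106 rows at that level. Control replicate 3 was the lowest of all 6 libraries in 7 of the 9, against 30.6%. AGP41, a tested AG peptide under that level, had the opposite order in control, at 7.57, 3.88 and 14.1 CPM. The median log2 ratio of control replicate 2 to control replicate 3 was 1.41 in the AG peptides and 0.81 in all AGPs, AG peptides included. It was 0.26 in FLAs and 0.01 over all rows. Other members shared the order: control replicate 2 was the highest control library in 16 of 19 AGPs and 5 of 11 FLAs at that level. The ratio was 2.61 in FLA9, 2.28 in AGP10 and 2.09 in AGP2, and 0.35 in AGP21, an AG peptide. The median ratio of the highest to the lowest library was 2.68 in control and 1.28 after traffic noise for the AG peptides, against 1.71 and 1.39 over all rows at that level. Summed over the class, the level was 9088, 14504 and 7557 CPM in control and 11806, 14198 and 11021 CPM after traffic noise, so the mean of 10383 ± 3650 CPM overlapped that of 12342 ± 1655 CPM. Of the 5 tested genes of the root marker list, 3 (PHT1;1, SCR and PLT1) had control replicate 2 highest and control replicate 3 lowest in control. PIN2 and PYK10 did not. PLT1 was rare, at 0.519 to 4.59 CPM in control, and the share of all rows with this order was not computed. PHT1;1, a phosphate transporter, was at 31.5, 69.8 and 23.8 CPM in control and at 43.6, 58.9 and 51.8 CPM after traffic noise. The sum of the root list, nearly all of it PYK10, was 9704, 8879 and 9036 CPM in control and 7944, 8622 and 8740 CPM after traffic noise. The part of root content in the AG peptide values was not tested.

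**Figure D3:**
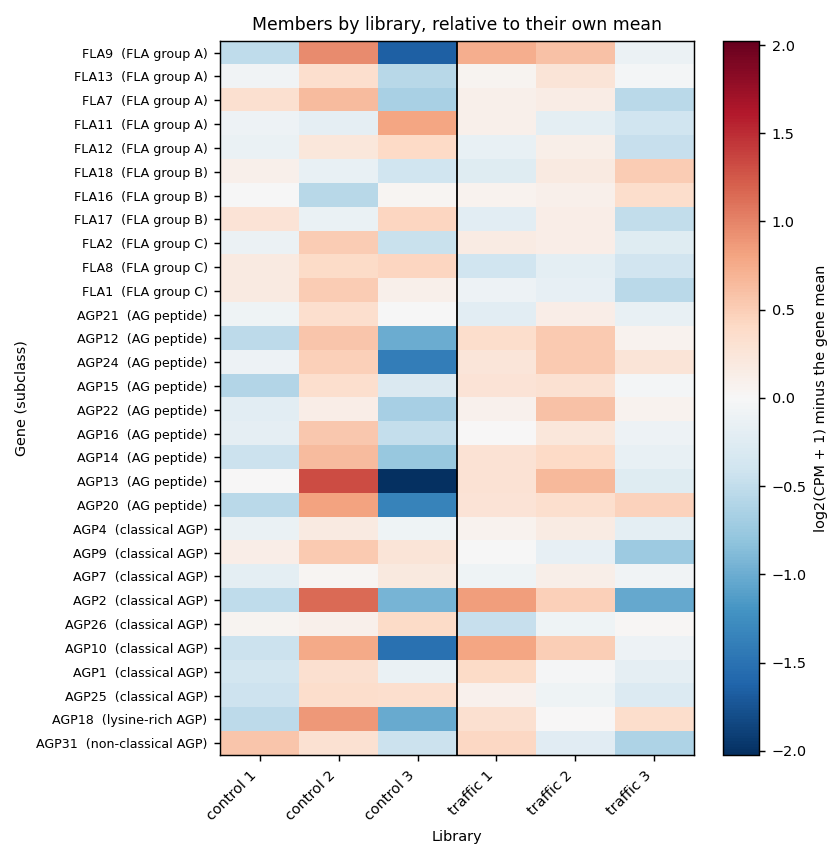
Level of each FLA and AGP gene with a mean of at least 20 CPM in each library, as log2(CPM + 1) minus the mean of the gene over the 6 libraries, with red above and blue below that mean; genes are grouped by class and the line parts control from traffic noise. Control 2 is red in 9 of 9 AG peptides, and control 3 is blue in most of them.

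The classical AGPs had 4 positive and 7 negative members of 11 tested, with a median of −0.04, which was −0.24 without control replicate 1 and −0.29 without traffic noise replicate 1. AGP9 had 2914, 3824 and 3189 CPM in control and 2638, 2360 and 1600 CPM after traffic noise. The groups did not overlap, at 3309 ± 466 against 2199 ± 537 CPM, at a log2 fold change of −0.59 ± 0.23 (adjusted p of 0.590 by edgeR and 0.113 by DESeq2). AGP4 had 2659, 3304 and 2759 CPM in control and 3054, 3286 and 2530 CPM after traffic noise, a log2 fold change of 0.02 ± 0.19. AGP7, a relative of AGP4 with 64.7% protein identity, had 1984, 2348 and 2607 CPM in control and 2136, 2467 and 2155 CPM after traffic noise, at −0.04 ± 0.19. Of these 3 abundant genes, AGP9 was the 1 whose groups did not overlap.

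AGP26 was also lower in all 3 traffic noise libraries, at 113 to 159 CPM against 163 to 205 CPM in control, a log2 fold change of −0.35 ± 0.22. AGP3 had the smallest p among the AGPs and the most negative fold change of the members tested, at a low mean of 4.19 CPM. DESeq2 gave it an unadjusted p of 0.00105 and no adjusted p. It stood at 12.3, 10.7 and 0.981 CPM in control and at 0.148, 0.986 and 0 CPM after traffic noise. Control replicate 3 lay just under traffic noise replicate 2, so the groups overlapped, and the log2 fold change of −4.38 ± 1.58 had an adjusted edgeR p of 0.545. AGP2, whose protein is 58.7% identical to that of AGP3, had 113, 360 and 84.0 CPM in control and 293, 226 and 78.2 CPM after traffic noise.

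The 3 lysine-rich AGPs went different ways, 2 of them at a low level. AGP19, which is known for effects on cell division and expansion, had 0.590, 5.09 and 0 CPM in control and 9.17, 15.2 and 14.8 CPM after traffic noise. It was higher in all 3 traffic noise libraries, at a log2 fold change of 2.78 ± 1.24 and an adjusted edgeR p of 0.668. The log2 fold change was 5.41 without control replicate 2, and AT1G68723 on the opposite strand had counts that matched 16.5% of those of AGP19 within libraries. AGP17, known for the binding of Agrobacterium to roots, had 7.86, 5.47 and 7.84 CPM in control and 2.12, 0.936 and 4.99 CPM after traffic noise. All 3 were lower, at −1.39 ± 0.88 and an adjusted edgeR p of 0.832. AGP18, known from the development of the female gametophyte, had 45.4 to 171 CPM in control and 93.6 to 119 CPM after traffic noise. Of the non-classical AGPs, AGP31, a wall protein of vascular tissue, had 181 to 364 CPM in control and 159 to 327 CPM after traffic noise, at −0.28 ± 0.32.

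**Figure D4:**
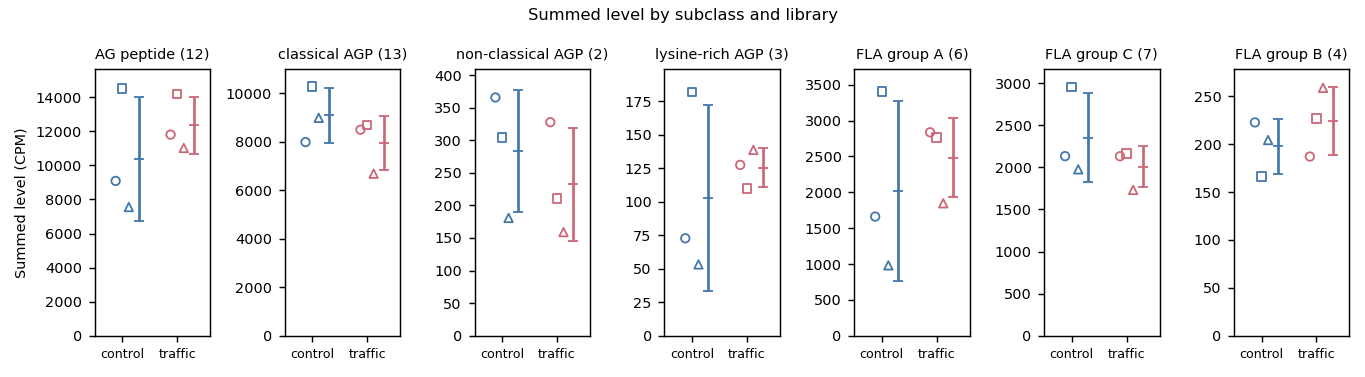
Summed level in CPM of each class of AGP and FLA genes by library, with the number of genes in brackets; open symbols are libraries shaped by replicate number, and bars show the mean ± SD of 3 control (blue) and 3 traffic noise (red) libraries. Every class overlaps between groups, and the AG peptides reach from 7557 to 14504 CPM within control. Group D, at 0 in every library, is left out.

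Opposite-strand genes limit what some AGP rows show, since the sources used here do not say whether counting used strand. For AGP21, the counts of AT1G55335 on the other strand matched 99.96% of its own, and for AGP4 those of AT5G10435 matched 99.4%. These shares compare the size of counts, as for FLA16. The share was 70.9% for AGP10 and 62.2% for AGP26. Whether the same reads were counted for a member and its partner cannot be told from the deposited counts.

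The genes that build, anchor and read out these proteins were examined as a list of 34, of which 29 were tested. In all, 13 were positive and 16 negative, with a median of −0.07, and edgeR, DESeq2 and limma-voom called 0 of them (5 had an adjusted p from DESeq2), with 1 of 29 (3.45%) at an unadjusted edgeR p under 0.05, against 7.46% of all rows. This gene was XYP2, 1 of 2 xylogen genes, whose products are AGP-like proteins that act in vascular differentiation. XYP2 had 92.9, 64.2 and 41.0 CPM in control and 35.2, 40.9 and 35.5 CPM after traffic noise, a log2 fold change of −0.83 ± 0.32 (edgeR, adjusted p of 0.575). The highest traffic noise value lay just under the lowest control value. Over the list, all 3 traffic noise libraries lay below all 3 control libraries for 4 genes (13.8% of those tested, against 7.39% of all rows). They lay above them for 1 gene (3.45%, against 8.99%). XYP1 had 6.34, 7.54 and 12.5 CPM in control and 2.02, 1.68 and 5.14 CPM after traffic noise, at −1.57 ± 0.76. The xylem marker sum was lower in the same libraries. Its 10 tested markers were split evenly in sign but not in level, as given above. The part of the xylem markers in the xylogen values was not tested.

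Of the 2 galactosidases listed that trim AGP side chains, GH43B had 27.2, 12.2 and 36.6 CPM in control and 13.8, 13.9 and 13.2 CPM after traffic noise, at −0.89 ± 0.43 (edgeR, adjusted p of 0.707) and with control replicate 2 below every traffic noise library. GH43A had 105, 76.1 and 112 CPM in control and 104, 109 and 94.4 CPM after traffic noise, at 0.07 ± 0.23. In the FLA4 pathway, which acts with the receptor kinases FEI1 and FEI2 in root growth under salt, FEI1 was the most abundant gene of the list. It had 134, 109 and 144 CPM in control and 112, 112 and 147 CPM after traffic noise, a log2 fold change of −0.06 ± 0.23. SOS5, the FLA4 gene, was at 8.71 to 13.8 CPM in control and 13.1 to 13.7 CPM after traffic noise, at 0.18 ± 0.41. Of the 11 galactosyltransferase genes, 10 were tested, 4 positive and 6 negative, and the prolyl 4-hydroxylases had 2 positive and 1 negative of 3 tested.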

How the data were processed

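RNA from 6 whole-seedling samples was made into Lexogen Quant-Seq libraries, per the labels' protocols. The authors deposited raw counts per gene symbol, 1 table a sample, with no normalization. Bowtie2, bedtools and TAIR10 are named in the submitters' processing notes. Their versions, the use of strand and the handling of reads with several matches are unknown (not given in the sources used here). Each table had 33139 rows, of which 218 carried no name (0.043% to 0.0886% of counts) and were left out. Of the named rows, 32488, with all 49 members, were tied to 1 locus of TAIR10.1, which served for sequences, overlaps and lengths. The notes name TAIR10 and the tables hold no coordinates. Whether counts scale with transcript length in these libraries is not given, so levels between genes are given per kb and in CPM.

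Rows were filtered with filterByExpr (19112 kept) and scaled with TMM. Groups were compared with edgeR (glmQLFit, robust, and glmQLFTest), with p-values adjusted by Benjamini-Hochberg over all kept rows and a threshold of 0.05. The common biological coefficient of variation was 0.757. Standard errors were obtained by dividing the size of each log2 fold change by the root of its F statistic. Alternatives were DESeq2, limma-voom, upper-quartile factors, no low-count filter, plastid and mitochondrial rows left out, a replicate block and each library left out in turn. Members, classes and lists were chosen with earlier results of these data known, so lists are described by counts and medians, with no test. Named members are the 8 with the highest mean CPM and the 5 with the smallest p in each family, and from the pathway list the 3 with the smallest p and the 2 with the highest mean; other genes are named to complete their class. Software was R 4.3.3 with edgeR 4.0.16, limma 3.58.1 and DESeq2 1.42.0, with pandas 2.3.3 and matplotlib 3.10.9 under Python 3.11.15.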

Additional observations from a re-analysis of the deposited data

How the results depend on the processing

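Over all rows, edgeR called 0 higher and 2 lower after traffic noise. DESeq2 called 85 and 137, limma-voom 4 and 10, and edgeR without a low-count filter 1 and 5, while leaving out plastid and mitochondrial rows or adding the replicate block gave 0 lower. Leaving out 1 library gave 0 to 18 higher and 0 to 13 lower. The FLA median of −0.34 was 0.040 with limma-voom and 0.036 with the replicate block, and −0.37 to −0.0020 with 1 library left out. The AGP median of 0.02 was −0.10 to 0.38 with 1 library left out, and their difference of −0.36 was −0.65 to 0.065, −0.087 with limma-voom and −0.11 with the replicate block. The median FLA was FLA10 with the replicate block, FLA3 without control replicate 1 or traffic noise replicate 1, and FLA5 without control replicate 2. FLA10, FLA3 and FLA5 had means of 2.79, 0.845 and 0.750 CPM. With limma-voom the median FLA was FLA2, at 1399 CPM. The cause of the shifts was not tested. Of the 40 members tested, 23 kept the sign of their fold change in all 12 alternatives, and FLA8 was the 1 called in any, by DESeq2; leaving out libraries under DESeq2 (adjusted p 0.0174 to 0.282) was added after seeing the data. Same-numbered samples did not deviate together (correlations of −0.009, 0.014 and 0.019). With 3 libraries in each group, this cannot show whether samples were handled in pairs. The labels do not say that the numbers pair them. Low counts kept 9 members out of the tests.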
